A study of Mus musculus with 8 samples.

Results

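Epithelial-mesenchymal transition (EMT) is the switch by which epithelial cells loosen their junctions and take on a migratory, mesenchymal state. The genes described here are 10 regulators of that switch, chosen by name from the deposited counts: 6 that drive EMT (Snai1, Snai2, Twist1, Twist2, Zeb1 and Zeb2) and 4 that hold cells in the epithelial state (Ovol1, Ovol2, Grhl2 and Esrp1). All 10 have a row among the 41730 rows of the count table, and 9 of them passed the filter on low counts that left 13393 genes to test. Snai2 did not pass.

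Expression was measured by RNA-seq in hanging-drop spheroids of 4T1 cells, a mouse mammary carcinoma line that came from a BALB/c animal and is used as a model of metastatic breast cancer. Both groups consisted of 4T1 cells infected with a lentivirus, which carried a scrambled hairpin RNA in the control group (shCtrl, n = 4) and a hairpin against Tlr7, the gene of an endosomal receptor for single-stranded RNA, in the other (shTlr7, n = 4). No untransduced cells were analysed here, and the labels state neither the number of hairpin designs nor whether replicates were grown as separate cultures. The p-values below therefore measure only the spread between these libraries, which may be technical.

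The driving factors are DNA-binding repressors and activators. Snail and Zeb zinc-finger proteins bind E-box motifs in the promoters of epithelial genes such as Cdh1 (E-cadherin) and recruit co-repressors there, while Twist proteins are basic helix-loop-helix factors that act as dimers with E proteins. Opposing them, the Ovol zinc-finger repressors and the Grainyhead-like factor Grhl2 keep epithelial genes on and repress Zeb1, and Esrp1 is an RNA-binding protein that directs epithelial splicing of genes such as Cd44 and Fgfr2. Zeb1 and the miR-200 family of microRNAs repress each other, as do Zeb1 and Grhl2 in many carcinoma cells.

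Promoter sequences are shown for the driving factor with the largest fall (Twist2), the epithelial factor that rose (Ovol2) and Snai1, whose promoter carries an E-box of the Snail and Zeb type. They come from RefSeq on GRCm38.p6, run 5′ to 3′ on the gene's strand from 250 bases before to 50 bases after the start, and are printed in lower case with any CACCTG or its reverse complement CAGGTG in capitals. The windows are chr1:91801211-91801510 on the plus strand for Twist2, chr2:144331313-144331612 on the minus strand for Ovol2 and chr2:167537945-167538244 on the plus strand for Snai1.
Twist2: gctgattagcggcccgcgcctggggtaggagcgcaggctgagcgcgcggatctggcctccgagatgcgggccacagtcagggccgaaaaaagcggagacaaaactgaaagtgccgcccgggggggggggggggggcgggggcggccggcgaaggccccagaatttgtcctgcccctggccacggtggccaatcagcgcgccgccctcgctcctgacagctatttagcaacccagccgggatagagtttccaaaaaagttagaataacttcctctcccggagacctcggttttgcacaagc
Ovol2: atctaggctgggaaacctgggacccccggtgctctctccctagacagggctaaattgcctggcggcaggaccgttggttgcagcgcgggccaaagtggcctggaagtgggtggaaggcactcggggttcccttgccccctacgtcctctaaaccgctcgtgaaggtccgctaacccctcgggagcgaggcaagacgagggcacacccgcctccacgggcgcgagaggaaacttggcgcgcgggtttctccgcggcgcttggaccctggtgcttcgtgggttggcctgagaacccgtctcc
Snai1: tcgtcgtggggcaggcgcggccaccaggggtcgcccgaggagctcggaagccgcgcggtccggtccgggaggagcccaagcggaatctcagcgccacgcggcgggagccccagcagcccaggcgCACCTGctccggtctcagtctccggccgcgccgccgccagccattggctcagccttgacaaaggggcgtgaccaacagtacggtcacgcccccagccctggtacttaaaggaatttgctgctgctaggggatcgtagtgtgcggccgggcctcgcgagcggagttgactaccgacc

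The Snai1 window holds 1 such E-box, at position -126 from the start, and the Twist2 and Ovol2 windows hold none. The Ovol2 window lies inside the gene, whose 5′ end on the minus strand is at 144332146 in GENCODE M21. Sequence at that end was not examined. Of 32851 RefSeq promoters of the same length, 6640 (20.2%) hold the motif on either strand. A match is a description of the letters, and no match says only that these letters are absent from this window. The GC content of the windows was 64.7% for Twist2, 65.7% for Ovol2 and 70.0% for Snai1. The Twist1 window and the 4 windows of Zeb2 hold none either. Promoters of Zeb1, Snai2, Ovol1, Grhl2 and Esrp1 were not examined.

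Levels are in CPM (read counts divided by the library size in M reads), with library sizes scaled by the trimmed mean of M values (TMM), a factor that sets the bulk of genes equal between libraries. Library totals lay between 18.1 and 93.8 M counts. All tests are edgeR's quasi-likelihood test with Benjamini-Hochberg adjustment over the 13393 tested genes, and a gene is said to rise or fall at an adjusted p under 0.05. By that rule 56.1% of all tested genes changed, 29.3% higher and 26.8% lower in shTlr7, and the 4 libraries of one group lay wholly above those of the other for 49.8% of genes. The median log2 fold change of all tested genes was 0.01. In bulk RNA, fewer cells of a type and less RNA per cell cannot be told apart. Tlr7 itself had 2, 3, 2 and 2 reads in the shCtrl libraries and 0, 4, 3 and 0 in the shTlr7 libraries, so these data do not check the knockdown: the pooled ratio of shTlr7 to shCtrl was 0.475, with an exact 95% counting interval from 0.150 to 1.43.

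Of the 6 driving regulators, 5 fell in shTlr7 (Twist2, Zeb1, Zeb2, Snai1 and Twist1), none rose, and Snai2 had too few reads to test. Of the 4 epithelial regulators, Ovol2 rose and Ovol1, Grhl2 and Esrp1 were not called. The median log2 fold change was -0.45 over the 5 tested driving genes and -0.06 over the 4 epithelial genes. Lower calls were made for 26.8% of all tested genes and higher calls for 29.3%. Within the driving class the log2 fold changes ran from -4.32 for Twist2 to -0.18 for Twist1. The filter asked for 0.386 CPM in 4 libraries, which Twist2 reached in no shTlr7 library and Zeb1 in 3 of them. Both therefore entered the test through shCtrl, where they are high, and their falls in this count were not independent of the filter.

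**Figure D1:**
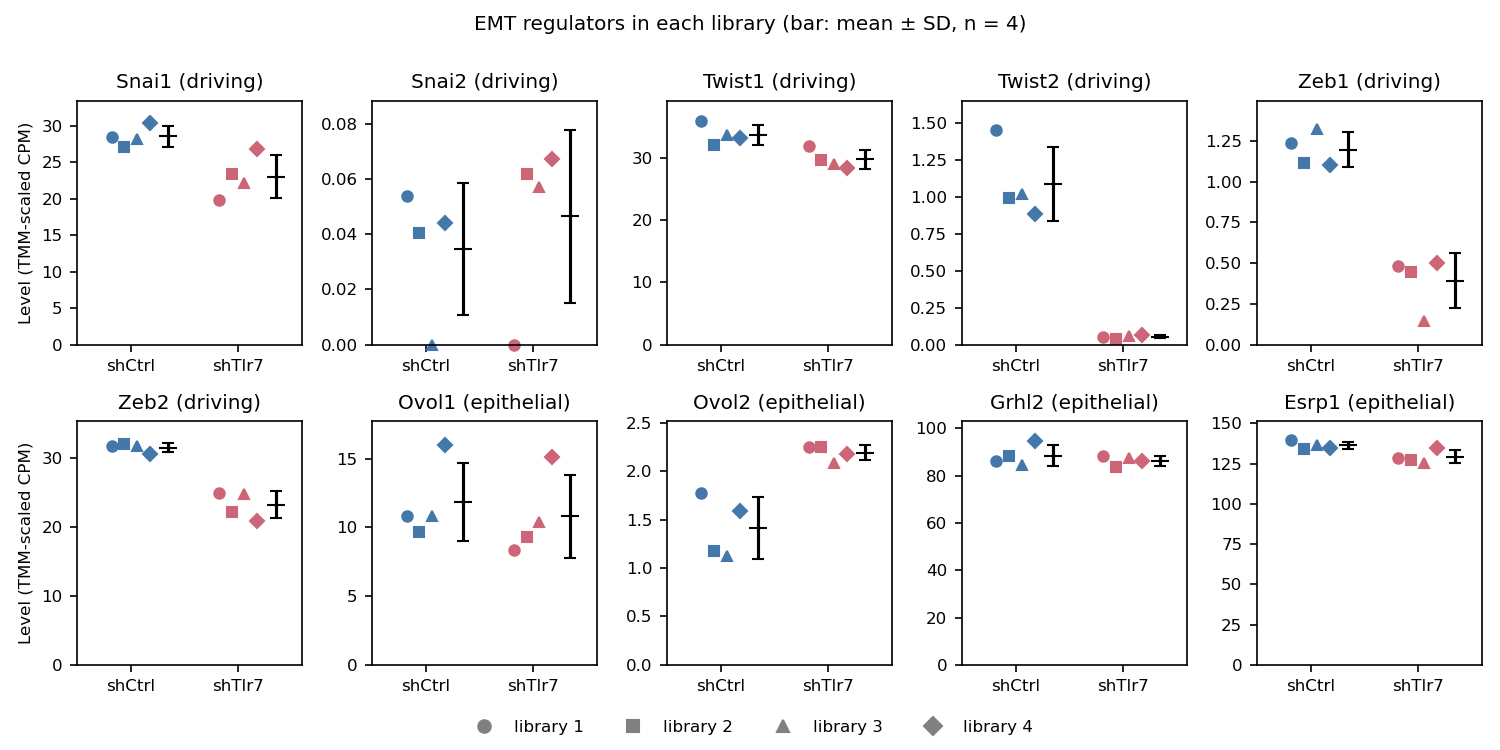
Level of each regulator (vertical axis, TMM-scaled CPM, starting at 0) in the 4 shCtrl and 4 shTlr7 libraries, with marker shape for the library number and a bar for the mean ± SD (n = 4). For Twist2, Zeb1, Zeb2, Snai1 and Twist1 every shCtrl point is above every shTlr7 point, for Ovol2 the order is the opposite, and for Snai2, Ovol1, Grhl2 and Esrp1 the groups overlap. Over all tested genes 49.8% did not overlap. With library size alone Snai1 and Twist1 overlapped too.

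Twist2 is a helix-loop-helix factor of mesenchymal and skin precursors that can repress Cdh1 (chr1:91801461-91848028, plus strand, GENCODE M21 on GRCm38). Its level was 1.46, 0.992, 1.02 and 0.884 CPM in shCtrl libraries 1 to 4 and 0.0536, 0.0413, 0.0571 and 0.0672 CPM in shTlr7 libraries 1 to 4. All shCtrl libraries were high and all shTlr7 libraries low, with no overlap. The read counts behind these levels were 27, 49, 20 and 20 against 1, 4, 2 and 2, so the shTlr7 values rest on 9 reads in all. Pooled over libraries, Twist2 was 21.1-fold lower in shTlr7, with an exact 95% counting interval from 10.7 to 47.3-fold. The log2 fold change was -4.32 ± 0.33 (SE), with an adjusted p of 1.68e-07 by edgeR's quasi-likelihood test with Benjamini-Hochberg adjustment.

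Reads assigned to Twist2 need care because other transcripts share its locus. In GENCODE M21 46.5% of its exon sequence lies under the antisense transcript Gm29100, which has no row of its own in the counts. Gm46117, a predicted gene at the same locus, had 22, 47, 20 and 20 reads in shCtrl and 5, 3, 3 and 3 in shTlr7, and it too passed the filter through shCtrl alone. It fell, with a log2 fold change of -3.57 ± 0.40 (SE) and an adjusted p of 5.31e-06 by edgeR's quasi-likelihood test with Benjamini-Hochberg adjustment. Whether the counting used strand is not stated in these sources. Reads of Twist2 and of an antisense partner therefore cannot be told apart, and the part of Gm46117 in the Twist2 result was not tested.

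Zeb1 is the zinc-finger and homeodomain repressor that silences Cdh1 and the miR-200 genes (chr18:5591860-5775467, plus strand). It had 1.24, 1.11, 1.33 and 1.11 CPM in shCtrl libraries 1 to 4 and 0.482, 0.444, 0.143 and 0.504 CPM in shTlr7 libraries 1 to 4. The shCtrl libraries were close together, and in shTlr7 library 3 stood below the other libraries. The groups did not overlap. Zeb1 fell, with a log2 fold change of -1.58 ± 0.27 (SE) and an adjusted p of 2.55e-04 by edgeR's quasi-likelihood test with Benjamini-Hochberg adjustment. The totals were 129 reads in shCtrl and 72 in shTlr7. Without shTlr7 library 3 the log2 fold change was -1.33.

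Zeb2, the paralog of Zeb1, lies on chr2:44983632-45117395 on the minus strand. Its levels were 31.8, 32.0, 31.8 and 30.6 CPM in shCtrl libraries 1 to 4 and 24.9, 22.2, 24.9 and 20.9 CPM in shTlr7 libraries 1 to 4. The shCtrl values were close to each other, and all of them were above the shTlr7 values. Zeb2 fell, with a log2 fold change of -0.45 ± 0.06 (SE) and an adjusted p of 4.57e-05 by edgeR's quasi-likelihood test with Benjamini-Hochberg adjustment. Its antisense transcript Zeb2os, which covers part of the Zeb2 exons, also fell, from 0.856 ± 0.280 to 0.311 ± 0.0447 CPM (SD, n = 4), with an adjusted p of 4.91e-04 by the same test. Zeb2os reached the filter's level in all shCtrl libraries but in 1 shTlr7 library, so it too entered the test through the group where it is high. Its part in the Zeb2 result was not tested.

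Snai1 encodes Snail, a zinc-finger repressor of Cdh1 (chr2:167538195-167542814, plus strand). Its levels were 28.5, 27.0, 28.2 and 30.4 CPM in shCtrl libraries 1 to 4 and 19.8, 23.3, 22.1 and 26.8 CPM in shTlr7 libraries 1 to 4. The highest shTlr7 library, library 4, was just under the lowest shCtrl library, so the groups did not overlap. Snai1 fell, with a log2 fold change of -0.30 ± 0.08 (SE) and an adjusted p of 0.00579 by edgeR's quasi-likelihood test with Benjamini-Hochberg adjustment. With library size alone in place of TMM the log2 fold change was -0.20 (adjusted p 0.0592) and the groups overlapped, so the call depends on the scaling.

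Twist1 is the helix-loop-helix factor paralogous to Twist2 (chr12:33957671-33959829, plus strand). Its levels were 35.9, 32.1, 33.6 and 33.2 CPM in shCtrl libraries 1 to 4 and 31.9, 29.7, 29.0 and 28.4 CPM in shTlr7 libraries 1 to 4. Twist1 was lower in each shTlr7 library than in any shCtrl library, but the lowest shCtrl and the highest shTlr7 values were close, at 32.1 and 31.9 CPM. Twist1 fell, with a log2 fold change of -0.18 ± 0.06 (SE) and an adjusted p of 0.0137 by edgeR's quasi-likelihood test with Benjamini-Hochberg adjustment. With library size alone the value was -0.08 (adjusted p 0.248) and the groups overlapped. Dropping TMM shifted the median over all tested genes by 0.10 on the log2 scale, and the share of called genes that were higher went from 52.2% to 68.9%.

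Snai2, or Slug, is the Snail paralog best known from basal mammary cells (chr16:14705852-14709385, plus strand). It had 1, 2, 0 and 1 reads in shCtrl libraries 1 to 4 and 0, 6, 2 and 2 reads in shTlr7 libraries 1 to 4. The groups overlapped, at 4 reads in total against 10. The pooled ratio of shTlr7 to shCtrl was 1.53, with an exact 95% counting interval from 0.440 to 6.67. Zero reads, as in shCtrl library 3 and shTlr7 library 1, allow levels of up to 0.153 and 0.161 CPM. These intervals and limits cover counting error only. A difference in Snai2 was not detectable at this depth.

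Among the epithelial regulators, Ovol2, a zinc-finger repressor that acts on Zeb1, was the member that rose (chr2:144305175-144332146, minus strand). Its levels were 1.78, 1.17, 1.12 and 1.59 CPM in shCtrl libraries 1 to 4 and 2.25, 2.25, 2.08 and 2.18 CPM in shTlr7 libraries 1 to 4. All shTlr7 libraries were above all shCtrl libraries and were closer to each other than the shCtrl libraries were. The log2 fold change was 0.67 ± 0.17 (SE), with an adjusted p of 0.00431 by edgeR's quasi-likelihood test with Benjamini-Hochberg adjustment. Pooled over libraries, 149 reads stood against 398, a ratio of 1.63 with an exact 95% counting interval from 1.35 to 1.98. In GENCODE M21 17.0% of the Ovol2 exon sequence overlaps an antisense transcript.

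Ovol1, the other Ovol factor, lies on chr19:5549136-5560646 on the minus strand. It had 10.8, 9.66, 10.9 and 16.0 CPM in shCtrl libraries 1 to 4 and 8.36, 9.28, 10.4 and 15.1 CPM in shTlr7 libraries 1 to 4. Library 4 was the highest in both groups, and the groups overlapped. The log2 fold change was -0.12 (95% interval -0.62 to 0.37), with an adjusted p of 0.655 by edgeR's quasi-likelihood test with Benjamini-Hochberg adjustment. Without shCtrl library 4 its sign was the opposite (0.05). In GENCODE M21 22% of the Ovol1 exon sequence overlaps other transcripts.

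Grhl2, which activates Cdh1 and other junction genes (chr15:37233036-37363569, plus strand), had 86.3, 88.1, 84.3 and 94.7 CPM in shCtrl libraries 1 to 4. In shTlr7 libraries 1 to 4 it had 88.2, 83.4, 87.6 and 86.0 CPM. The groups overlapped, and shCtrl library 4 was the highest of all. The 95% interval of the log2 fold change ran from -0.13 to 0.06, with an adjusted p of 0.529 by edgeR's quasi-likelihood test with Benjamini-Hochberg adjustment.

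Esrp1, the splicing regulator (chr4:11331933-11386783, minus strand), had 139, 134, 136 and 135 CPM in shCtrl libraries 1 to 4 and 129, 127, 126 and 135 CPM in shTlr7 libraries 1 to 4. The shTlr7 libraries were lower apart from library 4, which reached the level of the shCtrl libraries. The log2 fold change was -0.08 (95% interval -0.16 to 0.01), with an adjusted p of 0.102 by edgeR's quasi-likelihood test with Benjamini-Hochberg adjustment. Without shTlr7 library 4 it was -0.10 with an adjusted p of 0.046 by the same test. With library size alone both Grhl2 (0.07) and Esrp1 (0.03) had the opposite sign.

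**Figure D2:**
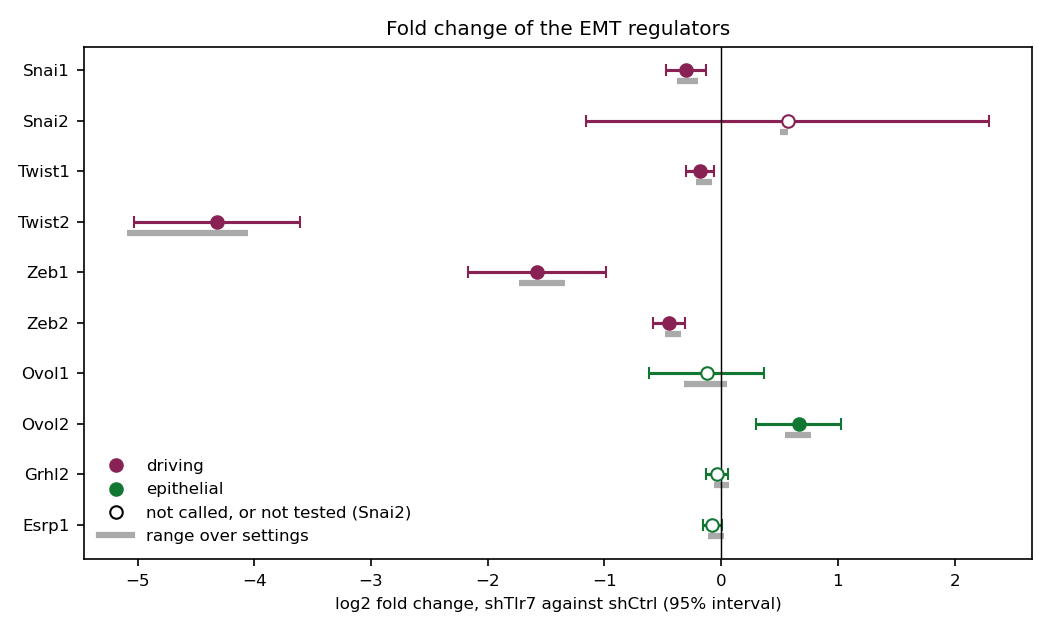
log2 fold change of each regulator in shTlr7 against shCtrl (horizontal axis) with its 95% interval, coloured by class, filled where called at an adjusted p under 0.05, with a grey line below for the range over the processing settings tried. Twist2 lies farthest from 0 at -4.32, followed by Zeb1 at -1.58, and Ovol2 is the filled point above 0, at 0.67.

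The order of the regulators by level was read per kilobase of exon, since longer transcripts gather more reads. In shCtrl, Esrp1 (21.6 ± 0.36 CPM per kb, SD, n = 4) and Twist1 (20.7 ± 0.96) were the highest and their ranges overlapped. Snai1 (17.6 ± 0.86) and Grhl2 (10.3 ± 0.53) followed. Ovol1 (3.39 ± 0.81), Zeb2 (1.58 ± 0.032), Ovol2 (0.670 ± 0.15), Twist2 (0.343 ± 0.079) and Zeb1 (0.117 ± 0.010) came next, and Snai2 was near 0. Neighbours from Twist1 down to Zeb1 had ranges that did not overlap. Lengths are unions of all annotated exons, which lowers the per-length level of genes with many transcripts such as Zeb2 (29 transcripts, 19942 bases).

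In shTlr7, Esrp1 (20.5 CPM per kb), Twist1 (18.3), Snai1 (14.2), Grhl2 (10.0) and Ovol1 (3.10) kept these places, and the ranges of Zeb2 (1.05 to 1.25) and Ovol2 (0.986 to 1.06) met. At the low end Zeb1 (0.0383), Snai2 (0.0230) and Twist2 (0.0173) came last, with overlapping ranges. Twist1 and Snai1 together made up most of the driving class in both groups: Twist1 51.3% and Snai1 43.6% of the summed per-length level in shCtrl, and 54.3% and 42.0% in shTlr7. The share of Twist2 was 0.847% in shCtrl and 0.0511% in shTlr7, and that of Zeb1 was 0.289% and 0.113%. Thus the members with the largest fold changes were minor parts of the class by level. The summed driving level was 40.4 ± 1.44 CPM per kb in shCtrl and 33.7 ± 1.07 in shTlr7 (SD, n = 4) with no overlap, and the summed epithelial level was 35.9 ± 1.31 and 34.6 ± 1.44 with overlap. The driving sum is mostly Twist1 and Snai1, whose groups overlapped with library size alone in place of TMM. The sums were not examined under that scaling.

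**Figure D3:**
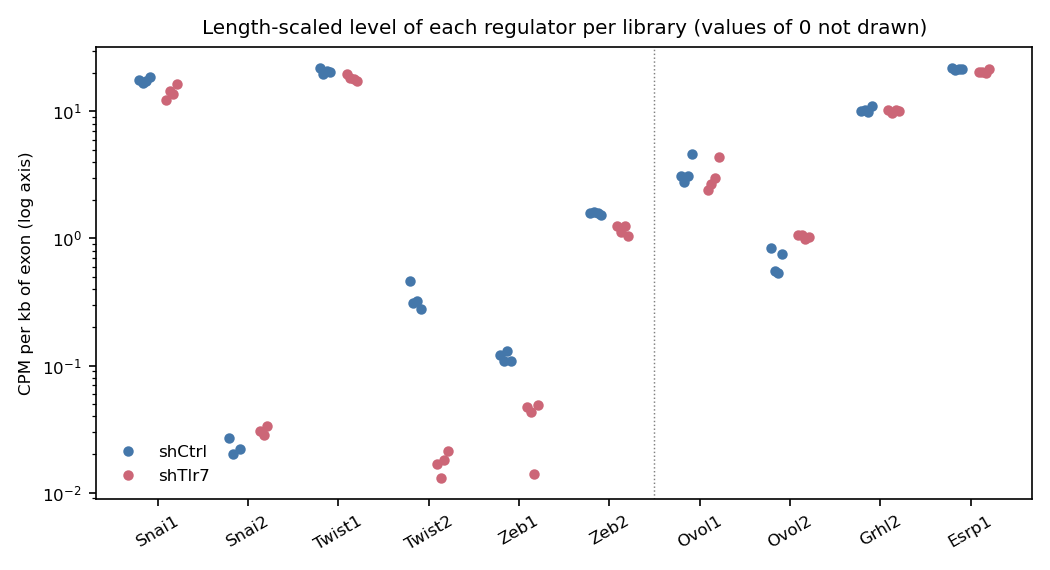
Level of each regulator per kilobase of exon in every library (vertical axis, CPM per kb, log axis, values of 0 not drawn), driving genes left of the dotted line and epithelial genes right of it. Twist1, Snai1, Esrp1 and Grhl2 sit near or above 10 in both groups, while Twist2 lies near 0.343 in shCtrl and 0.0173 in shTlr7.

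Ratios of 2 genes within a library do not depend on the scaling. Esrp1 over Zeb2 read counts was 4.39, 4.19, 4.29 and 4.41 in shCtrl libraries 1 to 4 and 5.16, 5.73, 5.05 and 6.44 in shTlr7 libraries 1 to 4. Grhl2 over Zeb2 lay between 2.65 and 3.09 in shCtrl and between 3.52 and 4.11 in shTlr7. Both ratios were higher in every shTlr7 library. Ovol2 over Zeb1 lay between 0.846 and 1.44 in shCtrl and between 4.33 and 14.6 in shTlr7, where library 3, with 5 reads of Zeb1, was the highest. Esrp1 over Snai1 lay between 4.45 and 4.97 in shCtrl and between 5.03 and 6.51 in shTlr7. Twist1 over Snai1 overlapped, at 1.09 to 1.26 and 1.06 to 1.61. No test was made on the ratios, which share genes. Only some pairs were taken, none of an epithelial regulator with Twist1 and none with Ovol1. Esrp1 and Twist1 had 6634 and 1588 reads in shCtrl library 2 and 2401 and 595 in shTlr7 library 1. Their ratio was higher in that shCtrl library, so the groups overlapped for this pair.

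**Figure D4:**
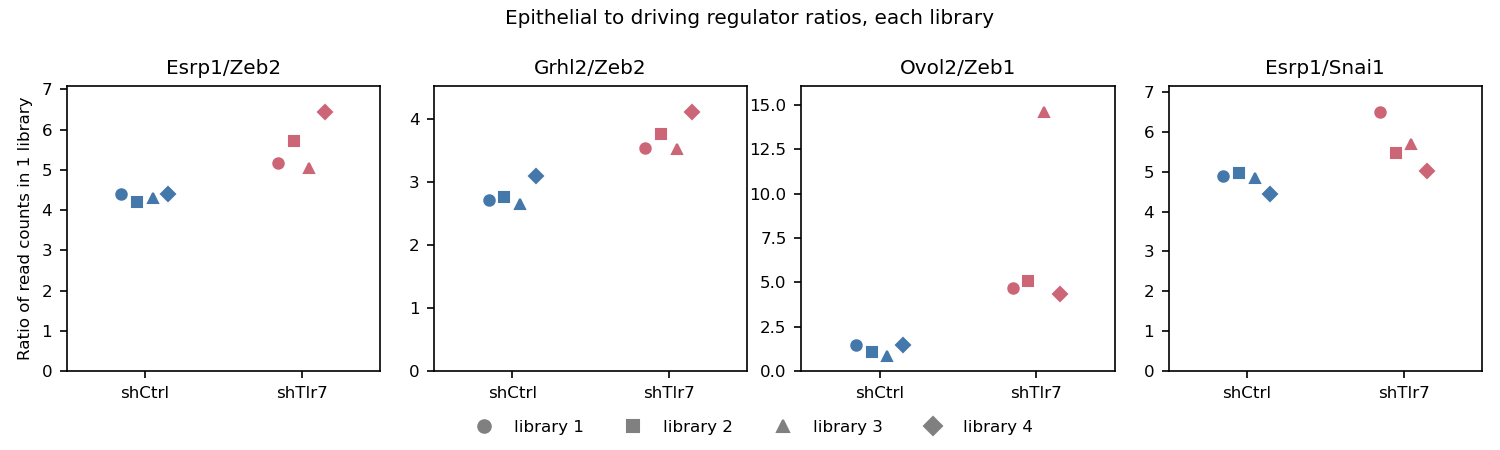
Ratio of the read counts of an epithelial to a driving regulator within each library (vertical axes start at 0), by group and library number. For the chosen pairs Esrp1/Zeb2, Grhl2/Zeb2, Ovol2/Zeb1 and Esrp1/Snai1 all 4 shTlr7 points lie above all 4 shCtrl points. Other pairs are not drawn, and Esrp1/Twist1, among them, overlaps.

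The closest relatives of the members include further epithelial factors, and 3 of their 4 tested genes rose. Grhl1, a Grainyhead-like factor of the epidermis, rose from 0.902 ± 0.201 to 2.85 ± 0.277 CPM (SD, n = 4), a log2 fold change of 1.70 ± 0.18 (SE) with an adjusted p of 3.54e-06 by edgeR's quasi-likelihood test with Benjamini-Hochberg adjustment. Esrp2, the partner of Esrp1 in epithelial splicing, rose from 31.8 ± 1.97 to 44.8 ± 2.82 CPM, with a log2 fold change of 0.49. Grhl3 rose from 0.450 to 0.879 CPM, with a log2 fold change of 0.93, and reached the filter's level in all libraries of shTlr7 alone. In all 3 genes the groups did not overlap, which held for 49.8% of all tested genes. Snai3 was not called (0.53, adjusted p 0.149), and Scrt1, Scrt2 and Ovol3 were not tested. Of all tested genes 29.3% rose.

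Further lists of EMT genes are given by their counts. Over all tested genes 29.3% rose, 26.8% fell and the median log2 fold change was 0.01, and each count is to be read beside these. Among other EMT-inducing transcription factors, 2 of 15 tested genes rose (29.3% over all genes) and 9 fell (26.8%), with a median log2 fold change of -0.36. Prrx1, among those that fell, reached the filter's level in all shCtrl libraries and in no shTlr7 library. It therefore entered the test through the group where it is high, and its fall was not independent of the filter. Tcf4, an E protein, fell from 235 ± 2.62 to 109 ± 2.52 CPM (SD, n = 4), a log2 fold change of -1.11 ± 0.04 (SE) with an adjusted p of 5.42e-11 by edgeR's quasi-likelihood test with Benjamini-Hochberg adjustment. Runx2, a bone and mammary regulator, fell from 112 to 48.9 CPM. Foxf1, a forkhead factor of mesenchyme, fell from 41.0 to 14.9 CPM. Sox4 fell from 440 to 240 CPM. The genes called higher were Klf8 and Sox9, and both had overlapping groups. No gene of the list was called higher without shCtrl library 1, 2 or 3 or without shTlr7 library 1 or 3, nor with DESeq2, while 9 or 10 fell in each of these fits. With library size alone 4 rose and 8 fell.

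Among other epithelial transcription factors, 1 of 8 tested genes rose and 1 fell, fewer than the 56.1% called over all genes, with a median of 0.05. With library size alone 4 rose and 1 fell. Tfcp2l1, a Grainyhead-related factor, rose from 2.62 to 6.67 CPM, and Klf5 fell from 58.8 to 47.2 CPM. Cebpa (0.29) and Foxa1 (0.18) were not called.

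The E proteins and Id inhibitors, which pair with Twist factors or block that pairing, held 6 genes that fell and 1 that rose among 7 tested, with a median log2 fold change of -0.64, where 26.8% of all genes fell and 29.3% rose. Tcf4, Tcf3 and Tcf12 are also members of the preceding list of EMT-inducing factors. The Id inhibitors did not move together: Id2 fell from 70.2 to 30.4 CPM, Id4 from 21.2 to 9.35 CPM and Id3 from 39.1 to 25.1 CPM, while Id1 rose from 17.6 to 27.2 CPM.

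Among co-repressors of the Snail and Zeb factors, 1 of 21 tested genes rose and 8 fell, with a median of -0.09. Calls in either direction made up 56.1% of all tested genes, a larger share than in this list. Hdac2, a histone deacetylase, had a log2 fold change of -0.37, and Kdm1a, the LSD1 demethylase, of -0.31. Limd1, a LIM-domain partner of Snail, rose (0.27). Loxl3, a lysyl oxidase, fell by 1.77 on the log2 scale, but a second copy row makes its counts uncertain. With library size alone the split was 6 higher and 5 lower. A list for the stability of Snail and Twist proteins held kinases, ubiquitin ligases, enzymes that remove ubiquitin and others. Of its 23 tested genes 4 rose and 11 fell, with a median of -0.08, and with library size alone 8 rose and 6 fell. The genes that fell included both ligases and enzymes that remove ubiquitin. The share called in either direction was near the 56.1% over all genes. The split by direction was not, since 29.3% of all genes rose and 26.8% fell. Csnk1a1 (-0.35), Pdzrn3 (-0.39) and Fbxo11 (-0.29) fell and Fbxo45 rose (0.37). Protein levels were not measured.

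Genes of epithelial adhesion and polarity held calls in both directions. In the list of epithelial adhesion and polarity genes, 16 of 36 tested genes rose and 10 fell, with a median of 0.13, and with library size alone 21 rose and 8 fell. Over all genes 29.3% rose and 26.8% fell, and the share of the list that fell was near the latter. Cdh3, among those that fell, reached the filter's level in every shCtrl library and in only 1 shTlr7 library. It therefore entered the test through the group where it is high. Cdh1, the classical target repressed by Snail and Zeb, rose from 440 ± 2.39 to 506 ± 21.1 CPM (SD, n = 4), a log2 fold change of 0.20 ± 0.04 (SE) with an adjusted p of 7.14e-04 by edgeR's quasi-likelihood test with Benjamini-Hochberg adjustment. Epcam, the epithelial adhesion molecule, rose from 705 ± 53.9 to 780 ± 25.3 CPM (0.15, adjusted p 0.0297), with groups that overlapped, and 6 of the 8 leave-one-out fits gave an adjusted p above 0.05, up to 0.131. Spint1, a protease inhibitor of epithelia, rose from 219 to 380 CPM, and Crb3, a polarity protein, from 6.24 to 14.3 CPM. The keratins Krt7 (1443 to 634 CPM) and Krt19 (651 to 405 CPM) fell.

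In the list of mesenchymal markers, 12 of 18 tested genes fell and 4 rose, with a median log2 fold change of -0.51, where 26.8% of all genes fell and 29.3% rose. Of the 18, Postn passed the filter through shCtrl alone, and Fap and Fbn1 reached its level in all libraries of shTlr7 alone. Vim, the intermediate filament vimentin, was 2439, 2322, 2293 and 1866 CPM in shCtrl libraries 1 to 4 and 1202, 1286, 1305 and 1216 CPM in shTlr7 libraries 1 to 4. It fell, with a log2 fold change of -0.83 and an adjusted p of 1.07e-06 by edgeR's quasi-likelihood test with Benjamini-Hochberg adjustment. Postn, the gene of the secreted protein periostin, fell from 5.55 to 0.0679 CPM, and its shTlr7 level rests on 13 reads. Col5a1 (-0.76) and Cald1 (-0.49) fell too. Fap, Fbn1 and Axl were among the genes that rose. Cdh2 (N-cadherin) had 0 reads in every library. Within libraries the ratio of Cdh1 to Vim was between 0.180 and 0.234 in shCtrl and between 0.385 and 0.445 in shTlr7.

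Of 14 genes with transcripts known to be spliced by Esrp proteins, 2 rose and 7 fell in total counts, with a median of -0.10, and with library size alone 3 rose and 5 fell. The share called in either direction was near the 56.1% over all genes. The split by direction was not, since 29.3% of all genes rose and 26.8% fell. Without shCtrl library 1 or 4 or without shTlr7 library 1 or 2, 1 in place of 2 rose. Cd44 (-0.58), Fgfr1 (-2.05), Ctnnd1 (-0.32) and Enah (-0.43) fell. Counts per gene do not measure splicing, so isoform use was not assessed here. Rows for miR-200 family hairpins and the host gene Mir205hg had 0 to 5 reads in a group, and none was tested.

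**Figure D5:**
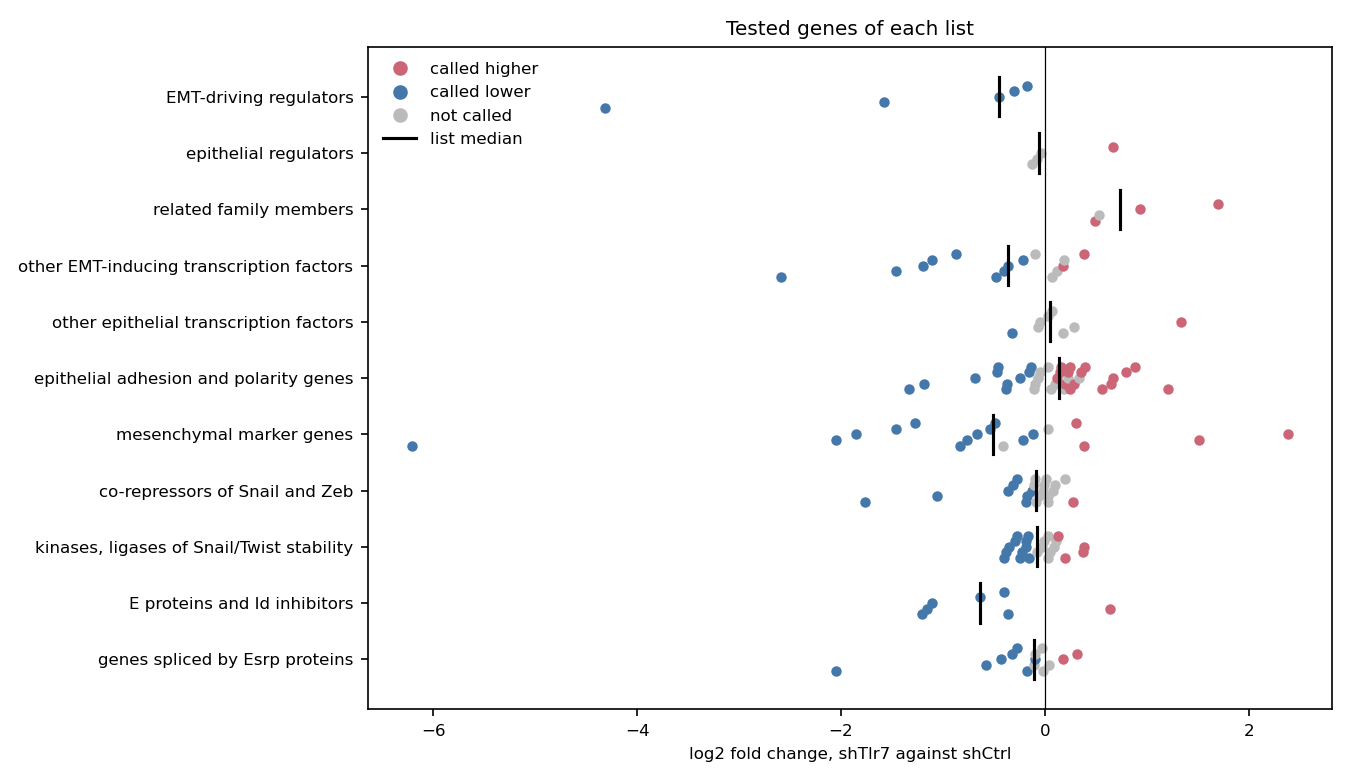
log2 fold change in shTlr7 against shCtrl (horizontal axis) of every tested gene in the regulator classes and the context lists, red where called higher, blue where called lower and grey where not called, with a black line for the list median. The medians lie at -0.45 for the driving regulators, -0.51 for mesenchymal markers and 0.13 for epithelial adhesion genes.

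The 4T1 label was checked against markers of carcinoma epithelium. Of 8 such markers 6 were tested, Krt18 was the most abundant, and Krt5 and Cldn7 were at 0, the latter beside a second copy row of the same gene. Their summed level lay between 3735 and 3926 CPM in shCtrl and between 3233 and 3445 CPM in shTlr7. Of the 6 tested, 3 rose and 3 fell, where 29.3% of all genes rose and 26.8% fell. Krt14 was among those that fell, from a mean of 36.2 to 3.26 CPM. Of 8 fibroblast markers Col3a1 and Thy1 were at 0 and 6, these included, were under 1 CPM, and the sum, mostly Pdgfra, was 43.9 to 45.3 CPM in shCtrl and 43.1 to 48.0 CPM in shTlr7. Leukocyte markers summed to 23.2 to 28.1 CPM and to 31.3 to 44.4 CPM, mostly Cd68, with Adgre1 and Lyz2 among the markers at 0. Of the 2 tested, 1 rose and 1 fell. Cd68 went from a mean of 23.4 to 38.5 CPM and Csf1r from 1.14 to 0.241 CPM. The Csf1r mean in shTlr7 was under the filter's 0.386 CPM. The part of these markers in the results for the regulators was not tested. Endothelial and adipocyte markers summed to under 1 CPM in each library.

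The genes most like Twist2 over the 8 libraries by Pearson correlation of log2 CPM were Aldh2, Aspscr1 and Aqp5 (r = 0.998, 0.998 and 0.998), out of 10540 genes compared, of which 9.11% had r over 0.95. For Ovol2 they were Aamdc, Klc4 and Inpp4a (r = 0.980, 0.979 and 0.979), with 0.294% of genes over 0.95. The 8 points fall into 2 groups, so these correlations mostly reflect the difference between groups and are given as a description. Aldh2 was 495 ± 11.1 CPM in shCtrl and 338 ± 4.84 CPM in shTlr7, and Aamdc was 4.98 ± 0.835 and 6.68 ± 0.245 CPM (SD, n = 4).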

How the data were processed

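The values are raw read counts per gene, which the authors deposited as whole numbers in a single table with a column for each library. Per the submitters' processing notes, STAR 2.7.5, DESeq2 1.32.0 and the build GRCm38 were used, with no roles stated. Which program counted the reads, whether it used strand, and on which annotation is not given in the sources used here. Libraries were grouped by their titles. Rows were filtered by filterByExpr in edgeR 4.0.16 (R 4.3.3), scaled by TMM and tested by the quasi-likelihood test (robust glmQLFit, group as the only term), with Benjamini-Hochberg adjustment over all tested genes. The script was tested on simulated data. Lengths, positions and overlaps were computed from GENCODE M21, and promoters came from RefSeq. Correlations used a prior count of 2. The smallest library had 18.1 M counts, where 3 counts are 0.161 CPM. All pairs of replicates differed by more than sampling noise, and within each group the pairs with library 4 differed the most.

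The members and the lists were chosen with earlier results of these data known. The text names all members, the 4 tested genes with the lowest p per context list, Cdh1, Epcam, Vim and Cdh2, the 3 genes most like Twist2 and Ovol2 among named genes whose average log2 CPM reached 1, and Tlr7. Genes named beyond these (Id1, Klf8, Sox9, Prrx1, Cdh3, Tcf3, Tcf12, Fap, Fbn1, Axl, Zeb2os, Gm46117, Mir205hg, the untested Scrt1, Scrt2 and Ovol3, and the cell type markers Krt18, Krt5, Krt14, Cldn7, Col3a1, Thy1, Pdgfra, Cd68, Csf1r, Adgre1 and Lyz2) were chosen after their values were seen. Some genes of the lists are not reported here by name. Alternatives were other scalings, filters and thresholds, DESeq2 1.42.0, limma-voom (limma 3.58.1), thinning, a replicate block and leaving out libraries.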

Additional observations from a re-analysis of the deposited data

Results flagged for a closer look

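Of 94 groups of 4 libraries checked, 4 held a library far from the others, and chance alone flags about 1 in 20. Zeb1 was lowest in shTlr7 library 3, at 0.143 CPM or 5 reads, where the other shTlr7 libraries lay between 0.444 and 0.504 CPM. Snai2 was lowest in shTlr7 library 1, at 0.0 CPM, with 2 to 6 reads in the other shTlr7 libraries. Runx2 was highest in shCtrl library 4, at 126 CPM, and Spint1 was highest in the same library, at 242 CPM.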

How the results depend on the processing

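The calls for Twist2, Zeb1, Zeb2 and Ovol2 kept their direction and their side of the threshold in every alternative in which they were tested, with log2 fold changes of -5.09 to -4.06, -1.73 to -1.33, -0.48 to -0.34 and 0.55 to 0.77. Driving regulators called numbered 5, but 3 with library size only and 3 with a glmTreat fold of 1.2, where Snai1 and Twist1 were lost, 4 at an adjusted p under 0.01, where Twist1 was lost, and 4 with a minimum of 1 CPM in 4 libraries, where Twist2 was not tested. Epithelial regulators called numbered 1, but 2 with limma-voom, 2 with both libraries numbered 4 left out (chosen after seeing the data) and 1 to 2 when leaving out one library. The added call was Esrp1, which fell while Ovol2 rose. Its log2 fold change was -0.090 with limma-voom, -0.110 without both libraries numbered 4 and -0.098 without shTlr7 library 4. The cause of the added call was not tested. The log2 fold change of Ovol1 ranged from -0.316 to 0.0498 when leaving out one library, and with library size only Grhl2 (0.068) and Esrp1 (0.027) had the opposite sign to the value reported. Over all genes 7517 were called, 3304 with a glmTreat fold of 1.2, which asks for more than a 1.2-fold change. With the replicate number as a block 8339 genes were called, with 5 driving and 1 epithelial regulators, as in the unblocked fit. The numbers were not treated as pairing the libraries, because nothing in the labels says that they do. Correlations of deviations between same-numbered libraries were -0.00676, 0.114, 0.118 and 0.380. By best correlation, shCtrl libraries 3 and 4 matched their own number, while shCtrl libraries 1 and 2 matched shTlr7 library 3. Depth limits Snai2, Twist2 and Zeb1, which rest on few reads.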
